A study of Mus musculus with 4 samples.

Results

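The naive pluripotency transcription factors described here are Klf2, Klf4, Klf5, Esrrb, Zfp42 (also called Rex1), Tfcp2l1 and Tbx3. They were chosen by symbol, and their members are the reads that carry one of these 7 symbols and a poly(A) tail length above 0. All 7 were found among the 13831 symbols of the data. Together they held 3388 reads, with 1028 and 728 in the WT libraries (WT 1 and WT 2) and 1130 and 502 in the KO libraries (KO 1 and KO 2). The reads come from J1 mouse embryonic stem cells cultured in medium with fetal calf serum and LIF, a cytokine that holds these cells in self-renewal. Wild-type cells (WT) were set against cells with a knockout (KO) of Mov10, an RNA helicase that binds messenger RNA, with 2 libraries for each genotype. RNA selected on oligo(dT) beads was sequenced as native strands through nanopores, so that each read is 1 RNA molecule with an estimated tail length in nucleotides (nt). The study compared tail lengths between the genotypes. The sources used here do not say whether the libraries of a genotype came from separate cultures or whether the KO line is 1 clone, so p-values measure only the spread between these libraries, which may be technical.

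Naive pluripotency is the state of the preimplantation epiblast, and in mouse stem cells it is held by a network of transcription factors that activate one another and the core factors Oct4 (Pou5f1), Sox2 and Nanog. The inputs of the network differ: LIF acts through Stat3 on Klf4 and Tfcp2l1, loss of repression by Tcf7l1 raises Esrrb and Tfcp2l1, and FGF signalling through Erk lowers several members, Klf2 among them. Expression of the naive factors is known to vary from cell to cell in serum with LIF, and Zfp42 is a classic marker of that variation.

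Depth ranged from 351133 reads in WT 2 to 683239 in KO 1, and the median tail of a library from 97.3 to 105.8 nt. WT 1 and KO 2 had the shorter medians, at 97.3 and 98.1 nt. Mov10 itself had 26 and 14 reads in the WT libraries and 0 and 1 in KO 1 and KO 2, as the genotype labels imply (log2 difference −5.09, limma voom adjusted p = 0.0553). Levels below are scaled RPM, reads per 1000000 reads after median-of-ratios scaling, and differences are log2 values of KO minus WT. A read is 1 molecule, so RPM is not divided by transcript length. The cell type label was checked on marker lists. Pou5f1 stood at 1707 and 1398 scaled RPM in WT 1 and WT 2 and at 1220 and 1172 in KO 1 and KO 2. Summed levels of 12 formative and primed epiblast markers were 61.1 to 106 scaled RPM, those of 9 primitive endoderm markers 19.9 to 38.9 and those of 7 trophectoderm markers 17.7 to 58.4. Fgf5, Zic2, Lef1, T, Sox17, Foxa2, Dab2, Pdgfra, Cdx2, Elf5, Hand1 and Gata3 had 0 reads in every library. Of 7 fibroblast markers, Thy1 alone had reads and the collagens were at 0. The 7 naive factors summed to 2592 and 2023 scaled RPM in WT 1 and WT 2, and to 1612 and 1108 in KO 1 and KO 2.

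Sequence before the gene start is shown for the 3 members with a RefSeq promoter whose levels were lower in both KO libraries, Klf2, Klf4 and Zfp42. The RefSeq promoter table, of build GRCm38.p6, held 5 of the 7 members, while Klf5 and Tbx3 had no entry. Each stretch is the 250 bases before the annotated start, read 5′ to 3′ on the gene's strand. The Klf2 stretch is chr8:72318812-72319061 on the plus strand, that of Klf4 is chr4:55532476-55532725 on the minus strand, and that of Zfp42 is chr8:43307010-43307259 on the minus strand. Capitals mark matches, on either strand, to the GC box (GGGCGG) bound by Sp and Klf proteins, the related CACCC box (CCACCC), and the octamer bound by Oct4 (ATTTGCAT).
Klf2: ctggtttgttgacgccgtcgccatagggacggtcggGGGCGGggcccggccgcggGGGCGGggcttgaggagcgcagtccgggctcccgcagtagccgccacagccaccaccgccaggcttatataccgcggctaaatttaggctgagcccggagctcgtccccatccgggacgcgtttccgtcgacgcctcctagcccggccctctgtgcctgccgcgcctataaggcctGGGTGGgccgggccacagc
Klf4: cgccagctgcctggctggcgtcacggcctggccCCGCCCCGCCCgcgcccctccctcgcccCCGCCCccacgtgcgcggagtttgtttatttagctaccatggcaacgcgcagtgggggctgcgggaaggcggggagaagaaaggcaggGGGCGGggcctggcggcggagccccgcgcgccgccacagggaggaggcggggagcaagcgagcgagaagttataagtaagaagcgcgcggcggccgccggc
Zfp42: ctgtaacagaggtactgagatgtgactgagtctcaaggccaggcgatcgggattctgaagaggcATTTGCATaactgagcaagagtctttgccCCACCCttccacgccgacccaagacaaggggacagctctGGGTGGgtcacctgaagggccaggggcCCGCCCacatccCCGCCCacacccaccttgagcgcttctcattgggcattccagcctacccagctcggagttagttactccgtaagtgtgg
The Klf2 stretch held 2 GC boxes and 1 CACCC box, and the Klf4 stretch held 4 GC boxes, a pair of which overlap by 1 base. In Zfp42 there were 2 GC boxes, 2 CACCC boxes and 1 octamer, which lies 186 bases before the start. Among 32851 mouse promoters of this length, 32.7% held the GC box, 28.1% the CACCC box and 1.60% the octamer, so the octamer is the rarest of these matches. GC content was 71.2% in Klf2, 74.0% in Klf4 and 58.4% in Zfp42, against a median of 52.4% over all promoters. The estrogen-related receptor element CAAGGTCA was found in none of the 6 promoters of the members (1.33% of all), and the Stat site TTCNNNGAA in 1 of the 2 Esrrb promoters (7.02% of all). Each of the 2 Esrrb promoters had 1 CACCC box, and Tfcp2l1 held none of the 5 motifs searched. These matches describe letters only, since binding was not measured.

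Klf2, Klf4, Zfp42 and Tbx3 had lower scaled RPM in both KO libraries than in either WT library, by 2.10 to 2.94 times on the means. Their raw read numbers overlap between the genotypes, since KO 1 is the deepest library. Esrrb, Klf5 and Tfcp2l1 overlapped between the genotypes. None of the 7 passed the threshold in the test across all genes, and no other gene did either. The share of the 4815 tested genes called at an adjusted p under 0.05 was 0%. In scaled RPM, both KO libraries lay below both WT libraries for 4 of 7 members against 20.5% of all genes, and above for 0 of 7 against 20%. In these bulk libraries, fewer cells expressing a gene and less RNA per cell cannot be told apart.

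Among the Krüppel-like factors, which bind GC-rich and CACCC sequences and share many targets in stem cells, Klf2 was the most abundant. Klf2 had 300 and 167 reads in WT 1 and WT 2 (756 and 464 scaled RPM), and 270 and 87 reads in KO 1 and KO 2 (385 and 192 scaled RPM). The WT libraries averaged 610 ± 207 scaled RPM (SD, n = 2) and the KO libraries 289 ± 137 (SD, n = 2), with no overlap, although the lowest WT and the highest KO library lie close. The log2 difference for Klf2 was −1.10 ± 0.32 (SE; limma voom, Benjamini-Hochberg adjusted p = 0.188).

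Klf4, a target of LIF and Stat3 and one of the factors used to reprogram somatic cells, had 237 and 158 scaled RPM in WT 1 and WT 2 and 128 and 48.5 in KO 1 and KO 2. The KO 2 value rests on 22 reads. Klf4 differed by −1.23 ± 0.38 (SE, log2; limma voom adjusted p = 0.223). The ratio of Klf2 to Klf4 reads was similar in WT 1, WT 2 and KO 1, at 3.19, 2.93 and 3. In KO 2 it was higher, at 3.95, from 87 reads of Klf2 and 22 of Klf4. For both, the KO libraries were farther apart than usual: the gap of 2.01-fold for Klf2 was wider than that of 95.0% of tested genes, and the gap of 2.65-fold for Klf4 wider than that of 98.7%.

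Klf5, the member of this family needed earliest in the embryo, did not go with the other Krüppel-like factors. Its level was 75.6 and 245 scaled RPM in WT 1 and WT 2, and 247 and 150 in KO 1 and KO 2. WT 1 was the lowest library and WT 2 and KO 1 were nearly equal, so the genotypes overlapped (log2 0.53 ± 0.40, SE; limma voom adjusted p = 0.673). The gap between the WT libraries was 3.23-fold, wider than for 96.7% of tested genes. Accordingly there were 10 reads of Klf2 for each read of Klf5 in WT 1, against 1.90, 1.56 and 1.28 in WT 2, KO 1 and KO 2.

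Tbx3, a T-box factor reached by LIF through another branch than Stat3, was the least abundant member on average. It had 34 and 60 reads in WT 1 and WT 2 (85.7 and 167 scaled RPM), and 37 and 15 in KO 1 and KO 2 (52.8 and 33.1 scaled RPM). In scaled RPM the KO libraries lay below both WT libraries, and WT 2 was well above the rest. With all 4 libraries Tbx3 had the largest log2 difference of the 7, with 126 ± 57.3 scaled RPM in WT against 42.9 ± 13.9 in KO (SD, n = 2 each). Its log2 difference was −1.45 ± 0.39 (SE; limma voom adjusted p = 0.158), and by unadjusted p it ranked 44 of 4815 genes. Without WT 2 or without KO 1, the log2 difference of Klf4 was larger (−1.50 and −1.96, against −0.97 and −1.80 for Tbx3).

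Esrrb and Tfcp2l1, which are both held down by Tcf7l1, showed no separation of the genotypes. Esrrb, an orphan nuclear receptor, had 295 and 189 scaled RPM in WT 1 and WT 2 and 194 and 177 in KO 1 and KO 2. WT 1 stood above the other libraries, which were close together (log2 −0.35 ± 0.28, SE; limma voom adjusted p = 0.691; 95% interval −0.95 to 0.24). Tfcp2l1, a CP2-family factor downstream of Stat3, had 63.0 and 189 scaled RPM in WT 1 and WT 2 and 177 and 132 in KO 1 and KO 2 (log2 0.51 ± 0.38, SE; adjusted p = 0.673). As with Klf5, WT 1 was the low library, 3-fold under WT 2, a gap wider than for 95.5% of tested genes. Klf5 and Tfcp2l1 stayed in near constant proportion, with 1.20, 1.29, 1.40 and 1.13 reads of Klf5 for each of Tfcp2l1 in WT 1, WT 2, KO 1 and KO 2.

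Zfp42, a zinc finger protein related to Yy1 and used as a reporter of the naive state, was the most abundant of the 7 in every library. Zfp42 had 428 and 220 reads in WT 1 and WT 2 (1079 and 611 scaled RPM), and 300 and 170 in KO 1 and KO 2 (428 and 375 scaled RPM). The KO libraries were close to each other and below both WT libraries, at 402 ± 37.5 against 845 ± 331 scaled RPM (SD, n = 2 each). The log2 difference was −1.02 ± 0.27 (SE; limma voom adjusted p = 0.160).

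**Figure D1:**
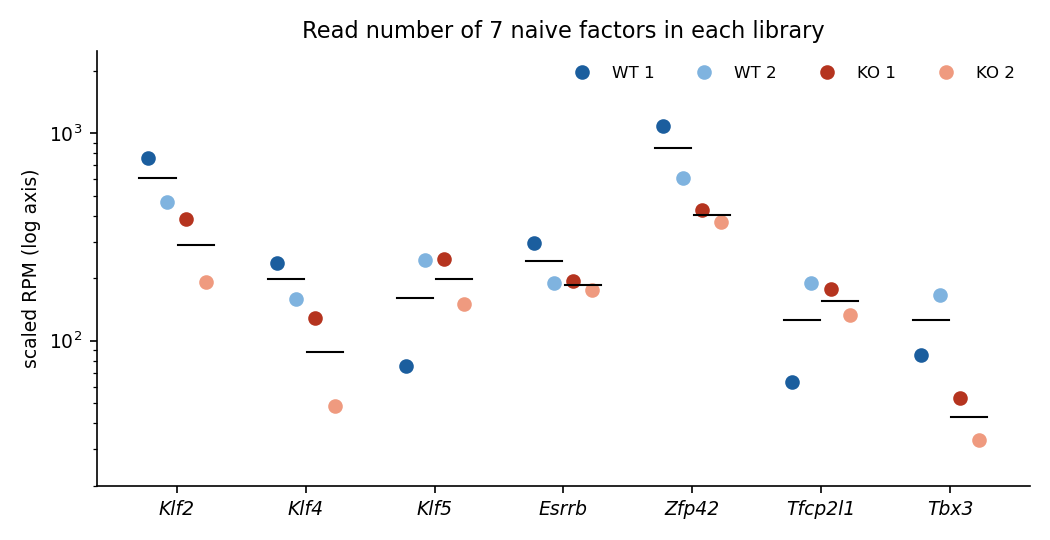
Scaled RPM of each naive factor (log axis) in WT 1, WT 2, KO 1 and KO 2, with 1 point per library and a bar at the mean of each genotype. Klf2, Klf4, Zfp42 and Tbx3 have both KO points under both WT points, while WT 1 is the lowest library for Klf5 and Tfcp2l1.

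In order of mean level the members ran Zfp42, Klf2, Esrrb, Klf5, Klf4, Tfcp2l1 and Tbx3, from 623 to 84.6 scaled RPM. The ranges of all 6 neighbouring pairs in this order overlapped. Zfp42 was above Klf2 and Klf2 above Esrrb in all 4 libraries, whereas Klf4 was above Tfcp2l1 in 1 of 4. In WT 1, Klf5 and Tfcp2l1 made up 2.92% and 2.43% of the reads of the 7 factors. In WT 2, KO 1 and KO 2 the shares were 12.1%, 15.3% and 13.5% for Klf5 and 9.34%, 11% and 12.0% for Tfcp2l1. For Klf5 and Tfcp2l1, WT 1 thus differed from the other libraries, WT 2 included. Other members set other libraries apart. Tbx3 made up 8.24% in WT 2, against 3.31%, 3.27% and 2.99% in WT 1, KO 1 and KO 2. Klf4 made up 4.38% in KO 2, against 9.14%, 7.83% and 7.96% in WT 1, WT 2 and KO 1.

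Read against the other genes, 4 of 7 members had an unadjusted p under 0.05 and were lower in KO, as did 5.17% of the 4815 genes, 249 in number. The same number, 5.17%, were higher in KO, with no member among them. The median log2 difference of the 7 members was −1.02 and that of all tested genes −0.01. In the plot of all tested genes, the 4 members lie in the upper left of the cloud without standing outside it. By unadjusted p they ranked 44 (Tbx3), 47 (Zfp42), 66 (Klf2) and 92 (Klf4). The 4 core factors differed by less than these 4 members in limma voom. Pou5f1 differed by −0.37 (adjusted p = 0.579), Nanog by −0.47 (adjusted p = 0.560) and Sox2 by −0.68 (adjusted p = 0.458). Sall4 alone was positive, at 0.73 (adjusted p = 0.560), with 15 reads in WT 1, its lowest library. In scaled RPM, both KO libraries lay below both WT libraries for 2 of these 4, Pou5f1 and Nanog, against 20.5% of all tested genes. They lay above for 0 of 4, against 20%. Under scaling by total reads Pou5f1 kept this separation and Nanog did not. Nanog then had 273 and 424 reads per 1000000 in WT 1 and WT 2, and 275 and 256 in KO 1 and KO 2.

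**Figure D2:**
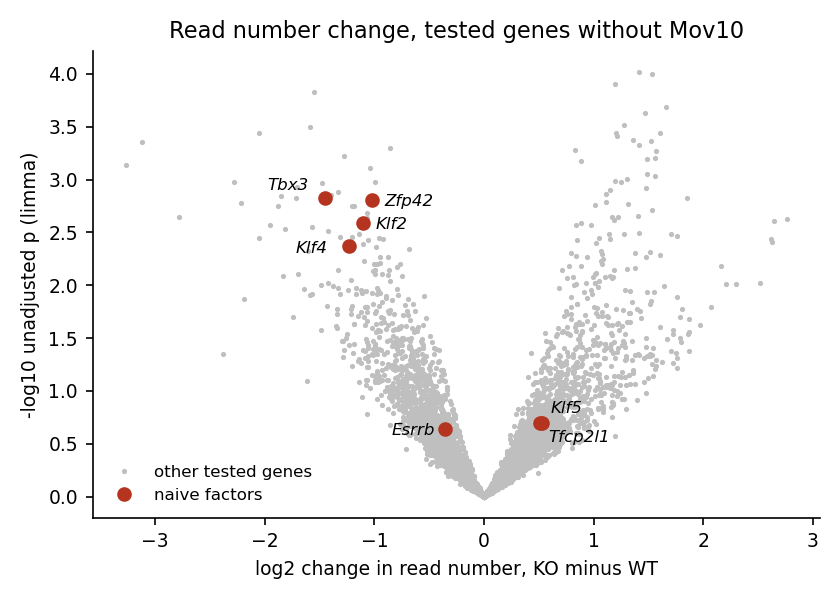
Log2 difference in read number, KO minus WT, against −log10 of the unadjusted limma p for tested genes other than Mov10 (grey) and the 7 naive factors (red). Klf2, Klf4, Zfp42 and Tbx3 lie between −1.45 and −1.02 on the horizontal axis, with other genes around them.

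Which library is left out decided what was called. Without WT 2, 5 members passed the threshold in limma voom, where 8.87% of tested genes did. Klf2 (−1.43, adjusted p = 1.29e-06), Zfp42 (−1.42, adjusted p = 4.02e-07) and Klf4 (−1.50, adjusted p = 1.33e-04) were then lower in KO. Klf5 (1.37, adjusted p = 0.00382) and Tfcp2l1 (1.28, adjusted p = 0.0129) were then higher. Without WT 1, all 7 members had a negative log2 difference, with −0.32 for Klf5, −0.29 for Tfcp2l1 and −0.03 for Esrrb. Tbx3 alone passed there (−1.93, adjusted p = 1.05e-04), where 1.87% of tested genes did. In each of these fits the genotype with 1 library is assumed to vary as the other does. No member passed without KO 1 or without KO 2, where the smallest adjusted p was 0.314 (Klf2 without KO 1). Klf2, Klf4, Zfp42 and Tbx3 stayed lower in KO with any 1 library left out, with log2 differences from −0.59 (Klf4 without KO 2) to −1.96 (Klf4 without KO 1). With no filter on low read numbers, adjusted p was 0.0188 for Klf2, 0.0441 for Klf4, 0.0207 for Zfp42 and 0.0318 for Tbx3, where 0.694% of 13831 genes passed.

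**Figure D3:**
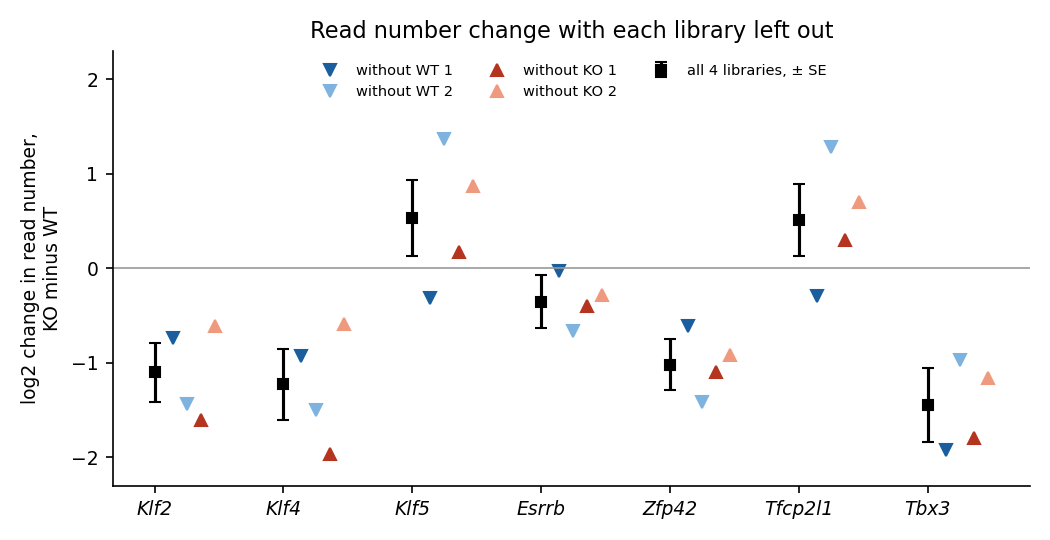
Log2 difference in read number, KO minus WT, of each naive factor with all 4 libraries (black square, ± SE) and with each library left out (triangles). Klf5 and Tfcp2l1 change sign without WT 1, at −0.32 and −0.29, whereas Klf2, Klf4, Zfp42 and Tbx3 stay below 0.

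Tail lengths of the 6 naive factors that could be tested did not separate the genotypes. These 6 had at least 20 reads in each library. In this limma fit the variance of a gene was set by its mean read number. The SEs, intervals and p-values for tails thus carry the spread typical of that depth, not the gene's own spread over libraries. Tbx3, with 15 reads in KO 2, was not tested, and its KO medians lay below its WT medians. None of the 6 had both KO libraries above both WT libraries, against 14.7% of 1935 tested genes, or below, against 11.8%. None was called (0% of tested genes at an adjusted p under 0.05 by limma), and none had an unadjusted p under 0.05, against 2.33% of tested genes, 45 in number. The median log2 difference was −0.07 for the members and 0.01 for all tested genes.

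Klf5 carried the longest tails of the 7 in 3 of the 4 libraries. Its median was 152.6 and 141.1 nt in WT 1 and WT 2, and 144.4 and 148.6 nt in KO 1 and KO 2. This placed Klf5 above 98.4%, 94.5%, 95.7% and 99.0% of tested genes, in a range over libraries of 0.11 (log2) that was narrower than for nearly all genes, since 5.53% had a smaller one. The log2 difference of −0.00 ± 0.16 (SE) had a 95% interval from −0.31 to 0.30, and limma gave an adjusted p of 0.9998. About 1 read in 2 of Klf5 had a tail of at least 150 nt, at 50.0%, 46.6%, 48.6% and 50.0% in WT 1, WT 2, KO 1 and KO 2, against 18.8% to 24.0% of all reads in those libraries. At other limits the Klf5 libraries did lie apart by genotype. Tails of at least 100 nt made up 86.7% and 80.7% of reads in WT and 80.3% and 72.1% in KO. WT 2 and KO 1 were nearly equal there. Tails of at least 200 nt made up 13.3% and 19.3% in WT and 22.0% and 29.4% in KO. Klf2 and Tbx3 also lay apart at 100 nt, with both KO libraries lower, whereas Klf4, Esrrb, Zfp42 and Tfcp2l1 overlapped. Klf2 had 60.0% and 59.9% in WT against 59.3% and 48.3% in KO. Tbx3 had 58.8% and 51.7% against 51.4% and 46.7%. How many genes outside the members lie apart at these limits was not counted. For median tails, 14.7% of tested genes had both KO libraries above both WT libraries, and 11.8% below. None of these shares was tested, and the Klf5 values in WT 1 rest on 30 reads. Conversely 1 of the 359 Klf5 reads had a tail under 30 nt.

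Tfcp2l1 and Esrrb followed with long tails. The Tfcp2l1 medians were 147.6 and 126.2 nt in WT 1 and WT 2 and 143.3 and 121.6 nt in KO 1 and KO 2. For Esrrb they were 127.2 and 123.8 nt in WT and 150.3 and 115.0 nt in KO. In Esrrb the KO libraries thus enclosed the WT libraries, and in Tfcp2l1 KO 1 lay above WT 2, so the genotypes overlapped. Log2 differences were −0.05 ± 0.16 for Tfcp2l1 and 0.07 ± 0.15 for Esrrb (SE, limma adjusted p = 0.9998 for each). The SE of Esrrb does not carry its wide spread in KO (SD 25.0 nt, against 2.38 nt in WT).

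Klf2, Klf4, Zfp42 and Tbx3 had tails nearer the library medians. Klf2 medians were 111.6, 114.2, 116.4 and 95.5 nt in WT 1, WT 2, KO 1 and KO 2. Klf4 medians were 111.8, 122.3, 133.3 and 84.8 nt in the same order. For Zfp42 they were 105.2, 119.9, 117.9 and 85.3 nt. KO 2 was the lowest library for all 3, and KO 1 was above WT 1, so no direction held for the genotype. Klf4 stood above 89.6% of tested genes in KO 1 and above 12.1% in KO 2, where it had 22 reads, and its range over libraries of 0.65 (log2) was wider than for 95.1% of tested genes and for 91.1% of 1005 genes of like depth. Zfp42, with more reads, was above 68.6% of genes in KO 1 and 12.8% in KO 2. Its range of 0.49 was wider than for 83.8% of tested genes and for 96.8% of 374 genes of like depth. Tbx3 medians were 110.1, 104.7, 101.7 and 92.0 nt, the last from 15 reads. KO 2 is also 1 of the 2 libraries with a shorter overall median, and its part in these values was not tested.

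Short tails were more frequent in Zfp42 than in the libraries as a whole. In WT 1, tails under 30 nt made up 4.44% of its reads (Wilson 95% interval from 2.86 to 6.83), and in WT 2 they made up 6.36% (from 3.83 to 10.4). KO 1 gave 4.33% (from 2.55 to 7.27) and KO 2 gave 7.06% (from 4.08 to 11.9). Over all reads the shares were 2.35%, 3.02%, 1.55% and 2.75%, under the lower bound of Zfp42 in each library. These intervals cover counting error only. The share in Zfp42 exceeded that of 76.9% and 80.3% of tested genes in WT 1 and WT 2, and of 88.9% and 87.5% in KO 1 and KO 2. Klf4 had larger shares than Zfp42 in WT 1 (7.45%) and KO 2 (9.09%). It had smaller ones in WT 2 (0%) and KO 1 (1.11%), with 10 short tails in all. Tbx3 had a larger share in KO 1 (5.41%), from 2 reads, and smaller ones elsewhere.

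In order of mean tail length the members ran Klf5 (146.7 nt), Tfcp2l1 (134.7), Esrrb (129.1), Klf4 (113.0), Klf2 (109.4), Zfp42 (107.1) and Tbx3 (102.1). All 6 neighbouring pairs overlapped in range. Klf5 exceeded Tfcp2l1 and Esrrb exceeded Klf4 in 4 of 4 libraries, and Zfp42 exceeded Tbx3 in 2 of 4. The 3 factors with the longest tails were those whose scaled RPM overlapped between the genotypes, and the 4 with shorter tails were those with both KO libraries below WT. This split is described after the values were seen, and it was not tested or compared over all genes.

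**Figure D4:**
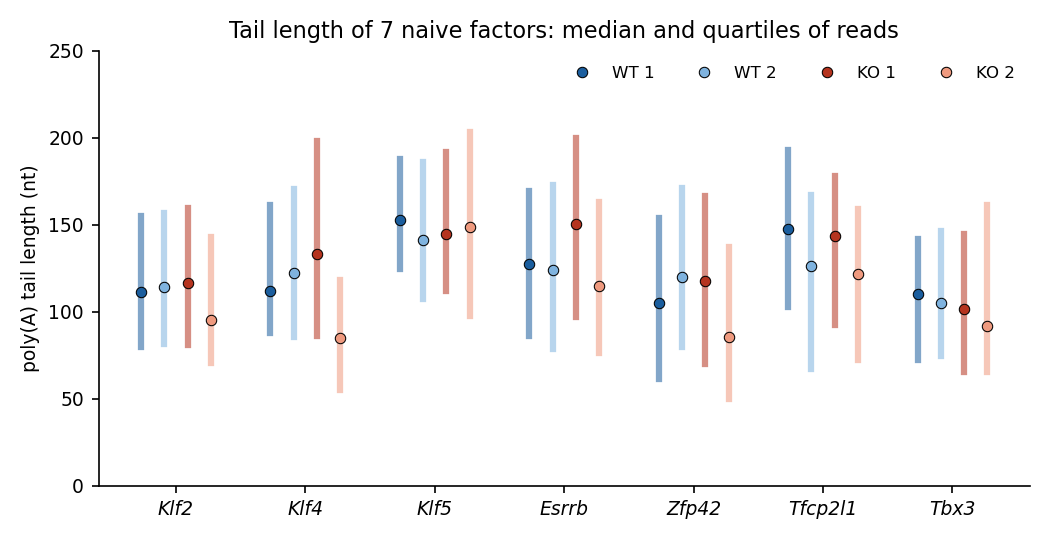
Poly(A) tail length in nt of the 7 naive factors in WT 1, WT 2, KO 1 and KO 2, with the median of reads as a point and the quartiles as a bar. Klf5 medians stay between 141.1 and 152.6 nt, and KO 2 is the lowest library for Klf2, Klf4, Zfp42 and Tbx3.

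Reads of Klf2, Klf4 and Klf5 were each assigned to 1 Ensembl transcript, and reads of Zfp42 to 3. How reads were divided among overlapping transcripts is not given in the sources used here. Of the Esrrb and Tfcp2l1 reads, 1 each lay on a transcript whose other reads carry another symbol. The make-up of Zfp42 differed most in WT 1. ENSMUST00000082120.4 took 61.0% of Zfp42 reads there (Wilson 95% interval from 56.3 to 65.5). In WT 2 it took 23.6% (from 18.5 to 29.7), while KO 1 had 17.0% (from 13.2 to 21.7) and KO 2 had 30% (from 23.6 to 37.3). That range of 44.0 percentage points was wider than for 99.0% of 483 genes with several transcripts and at least 50 reads in each library, whose median was 11.7 points. Esrrb, divided almost evenly over a pair of main transcripts, had a range of 10.3 points, wider than for 42.7% of those genes.

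The extra Zfp42 reads of WT 1 lay on that transcript. It had 658 scaled RPM in WT 1, against 144 in WT 2 and 72.8 and 113 in the KO libraries. The other Zfp42 transcripts together had 421, 467, 355 and 263 scaled RPM. Without ENSMUST00000082120.4, a choice made after its share in WT 1 was seen, Zfp42 averaged 444 ± 32.4 in WT and 309 ± 65.6 in KO (SD, n = 2 each), a ratio of 1.44. The difference was then −0.53 ± 0.26 (SE, log2; limma voom unadjusted p = 0.0533, adjusted p = 0.495). Tails on ENSMUST00000082120.4 had medians of 98.3 and 158.9 nt in WT 1 and WT 2 and of 117.5 and 70.6 nt in KO 1 and KO 2, the widest spread of the 3 transcripts. In the tail length test by transcript, this transcript differed by −0.46 (limma unadjusted p = 0.0029, adjusted p = 0.999), against −0.16 for all Zfp42 reads. The genotypes overlap on it, since WT 1 lies below KO 1, and the WT 2 and KO 2 medians rest on 52 and 51 reads.

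**Figure D5:**
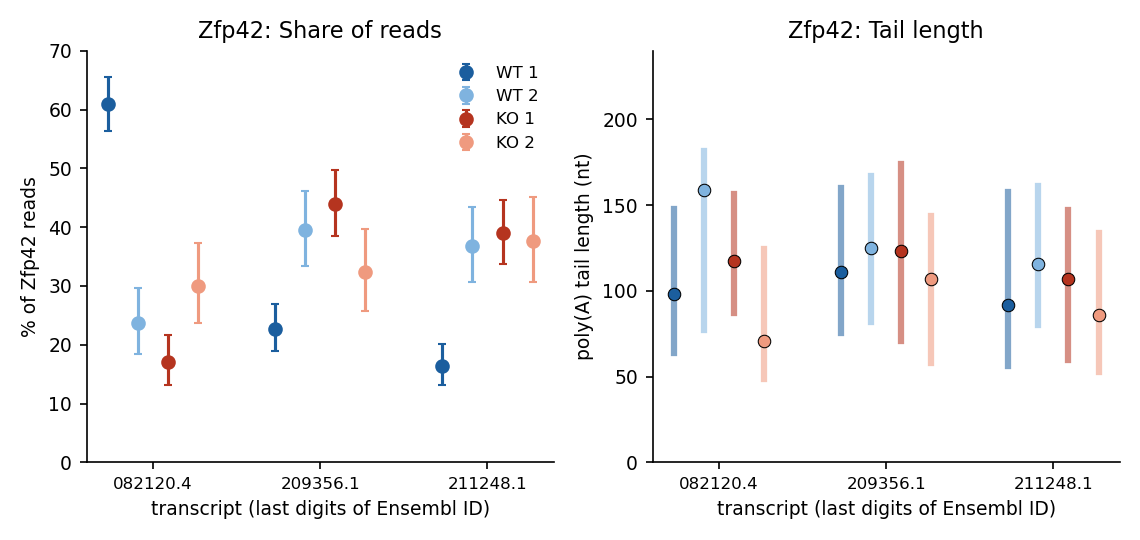
Share of Zfp42 reads on each of its 3 transcripts in percent (left, with 95% Wilson intervals) and tail length in nt (right, median and quartiles of reads), by library. ENSMUST00000082120.4 takes 61.0% of the reads in WT 1 and 17.0% to 30% in the other libraries.

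The authors' table places genes in classes named for Mov10 targets and m6A, a methyl mark on RNA. How the classes were made is not given in the sources used here. By these names Klf5, Esrrb and Tbx3 are targets with m6A, Tfcp2l1 is a target without m6A, Klf2 is a non-target, and Klf4 and Zfp42 have no class. The members lower in both KO libraries are thus spread over targets with m6A (Tbx3), non-targets (Klf2) and genes without a class. Median log2 read number differences of all tested genes were 0.17 in targets with m6A, 0.01 in targets without m6A, −0.10 in non-targets and −0.04 in genes without a class. Klf5 (0.53) and Tbx3 (−1.45) lay on opposite sides of the median of their shared class.

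Genes of the signals that feed the naive network were described by lists, none of which held a called gene. Of 13 LIF and Stat3 genes 5 had enough reads, and 4 of those 5 had a positive difference, with a median of 0.66. Of all 4815 tested genes, 2377 had a positive difference. The LIF co-receptor Il6st differed by 1.53 (limma voom adjusted p = 0.498), from 4, 4, 28 and 12 reads in WT 1, WT 2, KO 1 and KO 2. The feedback inhibitor Socs3 differed by 0.81 (adjusted p = 0.507), with 27 and 10 reads in WT 1 and WT 2. The kinase Pim3 differed by −0.61 (adjusted p = 0.625). Of 16 FGF and Erk genes 12 were tested, and 8 were positive, with the adaptor Grb2 at 0.86 (unadjusted p = 0.032, limma voom adjusted p = 0.449) and the Erk-responsive factor Etv5 at 0.42. Of 7 Wnt and Tcf7l1 genes the tested one, beta-catenin (Ctnnb1), differed by 0.08. The FGF and Erk list had a median of 0.33 where the members had −1.02, and the difference between lists was not tested.

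Other genes of the naive state did not share one direction. Of 11 such genes 8 were tested, of which 2 had a positive and 6 a negative difference. In scaled RPM, 4 of the 8 had both KO libraries below both WT libraries, against 20.5% of all tested genes. Both KO libraries lay above for 2 of the 8, against 20% of all tested genes. Nanog, also on this list, was among those below, but its genotypes overlapped under scaling by total reads. Dppa5a, the most abundant, differed by −0.34. Nr0b1 (−0.82, unadjusted p = 0.026, adjusted p = 0.417 in limma voom) and Fbxo15 (−0.57), named after their values were seen, were lower in both KO libraries. Nr5a2, a nuclear receptor that can stand in for Oct4 in reprogramming, differed by 1.03 (limma voom adjusted p = 0.375). The homeobox gene Gbx2 differed by 1.33 (adjusted p = 0.380). Both rest on few reads in WT 1 and WT 2, 12 and 19 for Nr5a2 and 6 and 14 for Gbx2. Among paralogs, Klf3 differed by 0.01 and Klf9 by −0.19, and the 11 other Klf genes summed to 340, 431, 402 and 340 scaled RPM in WT 1, WT 2, KO 1 and KO 2. Yy1, the relative of Zfp42, differed by −0.21, and the Esrrb coactivator Ncoa3 by 0.28. Rlim, the ubiquitin ligase that marks the Zfp42 protein for degradation, differed by 1.49, from 21.6 ± 12.7 scaled RPM in WT to 56.1 ± 7.50 in KO (SD, n = 2 each; limma voom adjusted p = 0.322). Of 12 formative and primed markers 2 were tested, the DNA methyltransferases Dnmt3a (2.52, adjusted p = 0.307) and Dnmt3b (1.40, adjusted p = 0.470), from few reads: Dnmt3a had 2, 2, 18 and 27 in WT 1, WT 2, KO 1 and KO 2. Otx2 of the same list went the other way, with 13, 8, 3 and 0 reads, too few to be tested; it is named after its values were seen.

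Genes with a profile like the members were sought by distance to the mean centred log2 profile of the 6 members with at least 20 reads in each library, over 1929 other genes and 4 libraries. The nearest in read number were Smc2 (distance 0.13), Arpc5l (0.13) and Fgf4 (0.14), and the nearest in tail length were H3f3b (0.02), Gga2 (0.03) and Polr1d (0.03). The members themselves lay farther from their own mean in read number, from 0.63 for Esrrb to 1.48 for Klf5. Their mean profile therefore represents no single member closely.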

How the data were processed

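The deposited table, made by the authors, lists for each direct RNA read an Ensembl transcript, a symbol, a library and a tail length in nt, per the file headers, with yes-or-no classes for Mov10 targets. Minimap2 2.20 is named in the submitters' processing notes, without its role. The basecaller, tail estimator, genome build and read filters are not given in the sources used here. Selection on oligo(dT) requires a tail, so the shortest tails may be lost at that step, and reads broken before the 5′ end count as molecules.

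The 3 reads with a tail length of 0 were left out. Libraries were assigned by sample titles, and replicates are libraries, not reads. Log2 median tail length was tested with limma 3.58.1 (R 4.3.3, log2 mean reads as trend) in 1935 genes, those with 20 reads or more in each library. The variance followed that trend, so genes of equal depth share an SE. Reads per gene were counted here and tested with limma voom (0.5 reads added, median-of-ratios scaling) in 4815 genes, those averaging 10 reads or more. P-values were adjusted by Benjamini-Hochberg over all genes tested, with a threshold of 0.05. Both tests were checked on simulated data. Shares have 95% Wilson intervals. With 2 libraries a genotype, precision is limited by their number.

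The members and lists were chosen with earlier results of these data known. All members and Mov10 are named, and of each other list up to 2 genes with the most reads and up to 2 with the smallest unadjusted p were eligible; the markers, the core factors and the genes nearest in profile were set by rule. Alternatives changed the tail summary, read minimum, centring, scaling, weights, depth, the unit (transcript), a replicate block, and left out each library. Python 3.11.15, pandas 2.3.3 and matplotlib 3.10.9 were used.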

Additional observations from a re-analysis of the deposited data

How the results depend on the processing

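With 2 libraries a genotype, 1 library can decide a call. For read number, 48 of 64 recomputed values kept direction and side of the threshold, 14 passed it and 2 reversed; for tail length 49 of 57 did and 8 reversed, all with small differences. The causes were not tested. Genes called for read number numbered 0 with all libraries and unfiltered 96, with scaling by total reads 7, and 0 to 451 leaving out a library (93 without WT 1, 451 without WT 2). Under total-read scaling the median over tested genes was 0.11, and the same 4 members stayed below WT. Genes called for tail length numbered 1 with a minimum of 10 reads and 0 to 2 leaving out a library.

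Over the tested genes, deviations of same-numbered libraries hardly went together, with correlations of 0.0135 for tail length and 0.0155 for read number. These values cannot show whether same-numbered libraries were handled together. With a replicate block, 66 genes (1.37%) were called for read number, among them Klf2 (adjusted p = 0.0156), Klf4 (0.0340), Zfp42 (0.0156) and Tbx3 (0.0185), and none for tail length.

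Leaving out a library moved the members' median read number difference between −1.10 and −0.59. It gave −0.32 to 1.37 for Klf5 and −0.29 to 1.28 for Tfcp2l1 in read number. Tail length differences (log2) ranged from −0.24 to 0.044 for Klf2, −0.46 to 0.19 for Klf4 and −0.060 to 0.054 for Klf5. They ranged from −0.13 to 0.26 for Esrrb, −0.40 to 0.070 for Zfp42 and −0.17 to 0.071 for Tfcp2l1. By transcript, the Zfp42 transcript with the most reads gave −0.46 (limma unadjusted p = 0.0029, adjusted p = 0.999), although its libraries overlap between the genotypes. Shares of long tails moved by more than the replicate spread for Klf5 at limits of 100 nt (−7.47 points) and 200 nt (9.36 points), and for Klf2 (−6.17) and Tbx3 (−6.24) at 100 nt.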
